A study of Rattus norvegicus with 6 samples.

Results

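The miR-23/27/24 clusters are short runs of neighbouring miRNA genes that mammalian genomes hold in paralogous copies, one called the a cluster (miR-23a, miR-27a, miR-24-2) and one called the b cluster (miR-23b, miR-27b, miR-24-1). Members were every line of the deposited raw table whose name has the stem miR-23a, miR-23b, miR-27a, miR-27b or miR-24, on either arm of the hairpin, with 1 entry for each mature sequence. This gave 7 of the 417 different sequences in the table: rno-miR-27b-3p, rno-miR-27a-3p, rno-miR-24-3p, rno-miR-23a-3p, rno-miR-24-2-5p, rno-miR-27b-5p and rno-miR-27a-5p, written here without the rat prefix rno. miR-23b on both arms and the 5p arm of miR-24-1 were not analysed here.

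The small RNA came from extracellular vesicles, the membrane particles that cells shed, of rat dedifferentiated fat (DFAT) cells. These are multipotent, fibroblast-like cells grown from mature adipocytes of Sprague-Dawley rats by ceiling culture. One group held vesicles of DFAT cells kept for 14 d in an osteogenic induction medium (14 d, n = 3), the other held vesicles of DFAT cells at 0 d of induction (0 d, n = 3), and vesicles were collected by ultracentrifugation. No sample used here was kept for 14 d without that medium, so time in culture and the medium cannot be told apart. The labels do not say whether replicates came from separate animals or cultures, and the p-values then reflect the variation among these 6 libraries, which may be technical.

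A miRNA guides a silencing complex to messenger RNAs that pair with its seed, bases 2 to 8 from the 5′ end, and members of a cluster are cut from one primary transcript and then loaded separately. As background, miR-27a and miR-27b repress the adipocyte regulator PPARγ in mouse and human cell models and restrain fat cell formation. In mouse osteoblast lines the bone regulator Runx2 represses the a cluster. miR-24 represses cell cycle and DNA repair genes in human cells. Both clusters are also known for their roles in endothelial cells and vessel growth.

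The mature sequences are shown because the paralogs differ by so little. Bases 2 to 8 are in capitals. All sequences but that of miR-23b-3p are from the deposited table, where the 7 members matched RefSeq (GRCr8) letter for letter; miR-23b-3p is from RefSeq and is given for comparison.
miR-27b-3p: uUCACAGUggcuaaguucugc
miR-27a-3p: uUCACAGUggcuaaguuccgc
miR-23a-3p: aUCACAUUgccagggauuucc
miR-23b-3p: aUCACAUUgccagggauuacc
miR-24-3p: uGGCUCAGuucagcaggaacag
miR-24-2-5p: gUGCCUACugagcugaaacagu

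Counted from the 5′ end, miR-27a-3p and miR-27b-3p differ by 1 substitution, C19U, and share the seed UCACAGU. miR-23a-3p and miR-23b-3p also differ by 1 substitution, U19A, and share the seed UCACAUU. A read that ends before base 19 cannot tell the members of either pair apart, and the sources used here do not say how such reads were assigned. The split between miR-27a-3p and miR-27b-3p, and the origin of the reads counted as miR-23a-3p, are therefore uncertain to that extent. Among the 417 deposited sequences, the miR-27 seed stood at bases 2 to 8 in miR-27a-3p and miR-27b-3p only. It also stood at bases 1 to 7 of miR-128-3p, a neural-enriched miRNA, and at bases 8 to 14 of miR-28-5p, in neither case at bases 2 to 8.

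The precursor hairpins, from RefSeq (GRCr8, minus strand), show which products tell the clusters apart. The mature arms are in capitals.
Mir27b: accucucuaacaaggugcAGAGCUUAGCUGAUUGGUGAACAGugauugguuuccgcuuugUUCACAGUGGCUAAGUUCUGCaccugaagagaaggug
Mir27a: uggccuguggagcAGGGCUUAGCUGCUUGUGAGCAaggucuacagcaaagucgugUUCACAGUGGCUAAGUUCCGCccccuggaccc
Mir24-1: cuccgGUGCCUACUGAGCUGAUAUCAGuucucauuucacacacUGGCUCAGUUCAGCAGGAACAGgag
Mir24-2: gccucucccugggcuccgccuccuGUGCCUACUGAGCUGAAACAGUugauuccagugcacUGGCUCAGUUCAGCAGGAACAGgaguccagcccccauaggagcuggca

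Mir24-1 and Mir24-2 carry the same 3p arm, so a count of miR-24-3p has no cluster of origin. The 5p arm miR-24-2-5p differs from that of Mir24-1 at 5 positions, the first being A17U, and marks the a cluster. In the GRCr8 gene table the b cluster lies on chromosome 17 in the order Mir23b, Mir27b, Mir24-1. Aopep, Fancc and Mir3074 overlap the b cluster. The a cluster lies on chromosome 19 in the order Mir23a, Mir27a, Mir24-2, with Zswim4 as a neighbour. The submitters' processing notes name build rn6, so no positions are given.

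Library totals were 58730 to 73236 counts at 14 d and 120766 to 164424 counts at 0 d. Replicates of a group had Pearson correlations of log2 CPM (counts scaled to a common library size) across miRNAs of 0.881 to 0.956 and differed by more than sampling noise, with a chi-square per degree of freedom of 19.1 to 164. The trimmed mean of M-values (TMM) factor, which rescales a library for its composition, was 0.471 in 14 d replicate 2 against 0.922 to 0.923 in the other 14 d libraries and 1.34 to 1.38 in the 0 d libraries. The main miRNA of the vesicles, miR-21-5p, held 59.7% to 68.7% of counts at 14 d and 29.4% to 42.4% at 0 d, and every share of a library below is relative to a total that includes it unless stated. All 10 mesenchymal markers on the list, of which miR-21-5p is one, were counted and tested. Of these, 5 rose (background over all tested sequences 26.1%) and 1 fell (background 28.6%). The rises include miR-145-5p, which passed the filter on low counts only through the 14 d group. The fall was that of miR-125b-5p, which passed it only through the 0 d group. Without 14 d replicate 2, 4 rose (background 16.4%) and 2 fell (background 24.3%). With total counts 2 rose (background 15.1%) and 2 fell (background 38.7%). The 9 without miR-21-5p together held 3.55% to 5.35% of counts at 14 d and 2.76% to 3.29% at 0 d, with a higher mean share at 14 d for 4 of them and a lower one for 5. The endothelial miR-126a arms held 0.0205% to 0.0409% at 14 d against 0.138% to 0.220% at 0 d, the erythrocyte markers 0.00491% to 0.0153% at 14 d against 0.174% to 0.471% at 0 d, and the liver marker miR-122-5p 0.409% to 0.594% at 14 d against 2.77% to 10.7% at 0 d. The muscle markers held 0.0150% to 0.0622% at 14 d against 0.243% to 0.298% at 0 d. Of the 2 tested, 1 rose (background 26.1%) and 1 fell (background 28.6%). The rise was that of miR-1-3p, with 32, 11 and 23 counts at 14 d and no listed count at 0 d. The fall was that of miR-206-3p, with 6, 0 and 4 counts at 14 d against 454, 403 and 294 at 0 d. Each passed the filter on low counts only through the group where it was high, so being tested and being called rest on the same counts. The epithelial markers held 0.00273% to 0.00654% at 14 d against 0% to 0.0152% at 0 d. The muscle shares rest on 2 of the 4 names on that list and the epithelial shares on 3 of 5. For the leukocyte list it was 3 of 5, and the other names were not analysed here. The leukocyte markers had no listed count at 14 d against 0% to 0.0197% at 0 d. The part of these shifts in the results was not tested. Within a vesicle pool, more vesicles that carry a miRNA and more copies per vesicle cannot be told apart.

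The clusters took up a larger part of the vesicle cargo at 14 d. Together the 7 members held 3.19%, 10.3% and 5.32% of the counts in the 14 d libraries, against 1.23%, 0.941% and 0.553% in the 0 d libraries. Every 14 d library lay above every 0 d library, with 14 d replicate 2 the highest. The means were 6.26% ± 3.64 at 14 d against 0.908% ± 0.339 at 0 d (SD of 3 libraries in each group; exact 2-sided permutation p = 0.1, the smallest 3 against 3 allows). Without 14 d replicate 2 the 14 d mean was 4.25%. Counted without miR-21-5p, the members held 16.6% ± 7.95 at 14 d against 1.47% ± 0.621 at 0 d (SD of 3 libraries in each group, exact permutation p = 0.1).

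Of the 7 members, 5 passed the filter on low counts, and 4 of these 5 rose at 14 d while none fell. Of all 119 tested sequences 54.6% changed, 26.1% rising and 28.6% falling (edgeR's quasi-likelihood F test, adjusted p under 0.05). The median log2 fold change was 3.43 over the 5 tested members and 0.26 over all tested sequences. With total counts as the only scaling, under which the fold changes of the tested sequences moved by a median of -0.86 (log2), 3 members rose against a background of 15.1%, at 3.61 for miR-27b-3p, 4.15 for miR-27a-3p and 2.29 for miR-24-3p. Without 14 d replicate 2, again 3 members rose against a background of 16.4%.

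miR-27b-3p, the b-cluster inhibitor of adipogenesis, was the most abundant member at 14 d. It had 1013, 4106 and 1663 counts in the 14 d libraries, or 1.66%, 5.61% and 2.83% of the total, against 584, 426 and 219 counts in the 0 d libraries, or 0.384%, 0.259% and 0.181%. The groups did not overlap, and among all sequences of a library miR-27b-3p ranked 7, 3 and 4 at 14 d against 27, 30 and 42 at 0 d. The mean share was 3.37% ± 2.03 at 14 d against 0.275% ± 0.102 at 0 d (SD of 3 libraries in each group). The TMM-scaled log2 fold change was 4.78 ± 0.84 (edgeR SE with n = 3 in each group; adjusted p = 0.00355). Leaving out 14 d replicate 2 gave 3.60 (adjusted p = 0.00114). Its passenger arm miR-27b-5p had 2, 2 and 3 counts at 14 d and no listed count at 0 d, too few for a test.

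miR-27a-3p, the a-cluster paralog with the same seed, was scarce at 0 d. It had 64, 705 and 207 counts at 14 d, or 0.105%, 0.963% and 0.352% of the total, against 32, 40 and 42 counts at 0 d, or 0.0210%, 0.0243% and 0.0348%. All 14 d libraries lay above all 0 d libraries, while the 14 d libraries themselves were spread widely, from 0.105% in replicate 1 to 0.963% in replicate 2. The exact (Clopper-Pearson) 95% interval of its share in 0 d replicate 1 was 0.0144% to 0.0297%; such intervals cover counting error only. The log2 fold change was 5.42 ± 1.09 (edgeR SE with n = 3 in each group; adjusted p = 0.00628). Leaving out 14 d replicate 2 gave 3.65 (adjusted p = 0.00338). The fitted fold changes of miR-27a-3p and miR-27b-3p ranked 9 and 10 from the top among the 119 tested sequences. The passenger arm miR-27a-5p was listed in 0 d replicate 2 alone, with 6 counts.

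miR-24-3p, made from both clusters, had 691, 2392 and 1041 counts at 14 d, or 1.13%, 3.27% and 1.77% of the total, against 788, 757 and 344 counts at 0 d, or 0.517%, 0.460% and 0.285%. The groups did not overlap in share. The raw counts of 14 d replicate 1 were below those of the first and second 0 d replicates, which were the deepest libraries, at 152275 and 164424 counts. Its mean share was 2.06% ± 1.10 at 14 d against 0.421% ± 0.121 at 0 d (SD of 3 libraries in each group). The log2 fold change was 3.43 ± 0.73 (edgeR SE with n = 3 in each group; adjusted p = 0.0067). Leaving out 14 d replicate 2 gave 2.35 (adjusted p = 0.0028).

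miR-23a-3p, the first miRNA of the a cluster and known in mouse cells to target Runx2, had the largest adjusted p of the members that passed the test. It had 168, 309 and 198 counts at 14 d, or 0.275%, 0.422% and 0.337% of the total, against 437, 303 and 63 counts at 0 d, or 0.287%, 0.184% and 0.0522%. The shares overlapped, since 0 d replicate 1 lay above 14 d replicate 1, and 0 d replicate 3 was far below the other 0 d libraries. After TMM scaling the groups did not overlap: 2979, 8962 and 3656 CPM at 14 d against 2139, 1371 and 377 CPM at 0 d. All 5 tested members were separate in this way, where 41.2% of the tested sequences had all 14 d libraries above all 0 d libraries. The 5 include miR-24-2-5p, which passed the filter on low counts only through the 14 d group. By share, 3 of the 5 members were separate, against 26.1% of the tested sequences. The log2 fold change of miR-23a-3p was 2.0 ± 0.71 (edgeR SE with n = 3 in each group; adjusted p = 0.0444). Total-count scaling ended the call, at 0.98 (adjusted p = 0.19). Leaving out 14 d replicate 2 also ended it, at 1.39 (adjusted p = 0.117), as did leaving out any other single library except 14 d replicate 1, at 1.55 to 2.24.

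miR-24-2-5p, the passenger arm that marks the a-cluster copy of miR-24, had 11, 13 and 12 counts at 14 d against 31, 16 and 0 counts at 0 d. It passed the filter on low counts only through the 14 d group. Its share was even across the 14 d libraries, at 0.0180%, 0.0178% and 0.0204%, and ran from 0% to 0.0204% at 0 d, so the groups overlapped. The log2 fold change was 1.79 ± 1.24 and did not pass the test (edgeR SE with n = 3 in each group; adjusted p = 0.237). As a share of both counted arms of miR-24, it made up 0.865% of the pooled 14 d counts (exact 95% interval 0.607% to 1.20%) and 2.43% of the pooled 0 d counts (1.79% to 3.22%). Single libraries ran from 0.541% to 1.57% at 14 d and from 0% to 3.79% at 0 d, and these overlap. The sum over arms mixes both clusters on the 3p side.

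**Figure D1:**
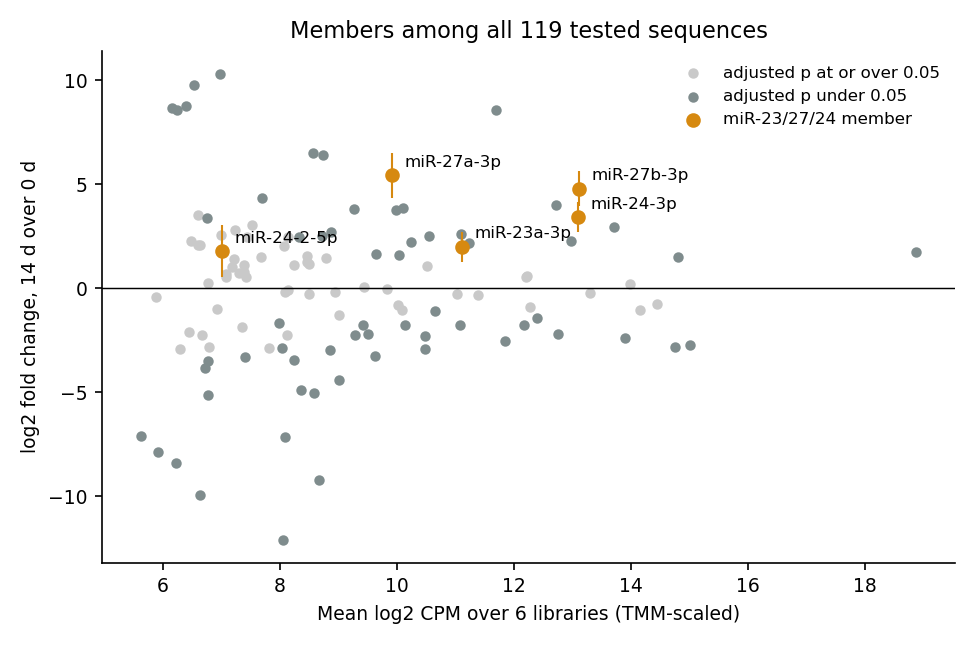
Mean log2 CPM over the 6 libraries (TMM-scaled) against the log2 fold change, 14 d over 0 d, for the 119 tested sequences; orange points with bars of 1 SE are the 5 tested members, dark grey points passed an adjusted p of 0.05. All 5 members lie above 0, from 1.79 for miR-24-2-5p to 5.42 for miR-27a-3p.

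The order of the members differed between the groups. At 0 d it was the same in all 3 libraries, with miR-24-3p first, then miR-27b-3p, miR-23a-3p and miR-27a-3p. At 14 d miR-27b-3p was above miR-24-3p in all 3 libraries. Below them, miR-23a-3p was above miR-27a-3p in 14 d replicate 1 and below it in 14 d replicates 2 and 3, so these neighbours have no fixed order at 14 d. Comparing members inside a library removes the scaling factor, since both counts carry the same one. Such log2 ratios, with 0.5 added to each count, were compared for 5 pairs of members.

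miR-24-3p stood at 0.682, 0.583 and 0.626 counts per count of miR-27b-3p at 14 d, against 1.35, 1.78 and 1.57 at 0 d. The groups did not overlap and the spread within each was small. The mean log2 ratio was -0.67 ± 0.11 at 14 d against 0.64 ± 0.20 at 0 d (SD of 3 libraries in each group). The difference was -1.31 ± 0.13 (SE; exact 2-sided permutation p = 0.1, the smallest possible, and 0.333 adjusted over the 5 ratios). It ran from -1.41 to -1.21 when any 1 library was left out. All 3 libraries of each group lay on their own side of a 1 to 1 ratio.

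Between the clusters, miR-27b-3p stood at 15.8, 5.82 and 8.03 counts per count of miR-27a-3p at 14 d, against 18.3, 10.7 and 5.21 at 0 d. The ranges lie over each other, and a change in the balance of the paralogs was not detectable with these 6 libraries. The mean log2 ratio was 3.17 ± 0.73 at 14 d against 3.31 ± 0.90 at 0 d (SD of 3 libraries in each group), a difference of -0.14 ± 0.67 (SE; exact permutation p = 0.8, adjusted 0.8). With 1 library left out the difference ran from -0.61 to 0.29, so its sign is not fixed, and the SE leaves room for a change in either direction. miR-27b-3p made up 89.4% ± 4.38 of the miR-27 3p counts at 14 d against 90.0% ± 5.58 at 0 d (SD of 3 libraries in each group).

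**Figure D2:**
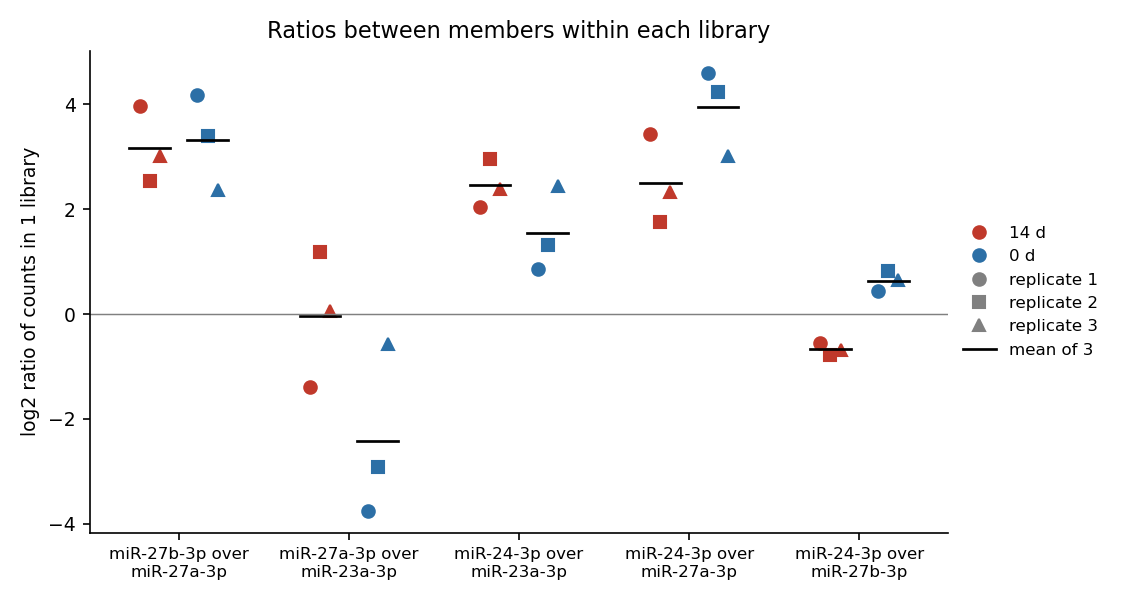
log2 ratio of the counts of 2 members in the same library, 14 d left of 0 d, with 1 symbol per replicate and a bar at the mean of 3. The groups are apart for miR-24-3p over miR-27b-3p, with -0.67 at 14 d and 0.64 at 0 d, and overlap for the other 4 ratios.

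Within the a cluster, miR-27a-3p stood at 0.381, 2.28 and 1.05 counts per count of miR-23a-3p at 14 d, against 0.0732, 0.132 and 0.667 at 0 d. The ratio was lower in 14 d replicate 1 than in 0 d replicate 3, so the groups overlapped. The mean log2 ratios were -0.04 ± 1.29 at 14 d against -2.41 ± 1.64 at 0 d (SD of 3 libraries in each group), and the difference was 2.37 ± 1.21 (SE; exact permutation p = 0.2, adjusted 0.333). For miR-24-3p over miR-23a-3p the difference was 0.92 ± 0.54 (SE; exact permutation p = 0.3, adjusted 0.375). For miR-24-3p over miR-27a-3p it was -1.44 ± 0.68 (SE; exact permutation p = 0.2, adjusted 0.333). In each of these 3 ratios the groups overlapped.

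Counts that belong to one cluster alone were also compared by library. The b-only product miR-27b, both arms, made up 52.1%, 54.6% and 53.3% of member counts at 14 d, against 31.2%, 27.5% and 32.8% at 0 d. The a-only products (miR-23a-3p, miR-27a on both arms and miR-24-2-5p) made up 12.5%, 13.6% and 13.3% at 14 d, against 26.7%, 23.6% and 15.7% at 0 d. The shared miR-24-3p made up 35.5%, 31.8% and 33.3% at 14 d, against 42.1%, 48.9% and 51.5% at 0 d. Each of these sets had groups that did not overlap, and the 14 d libraries were close together although their total member share ran from 3.19% to 10.3%. Within a library the sets are parts of the same total, so their shares are not independent of each other. Of the counts with a known cluster, the b cluster held 80.7%, 80.0% and 80.0% at 14 d, against 53.9%, 53.9% and 67.6% at 0 d, where replicate 3 had few miR-23a-3p counts. These shares are a description, and they count miR-23a-3p on the a side with no miR-23b on the b side.

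**Figure D3:**
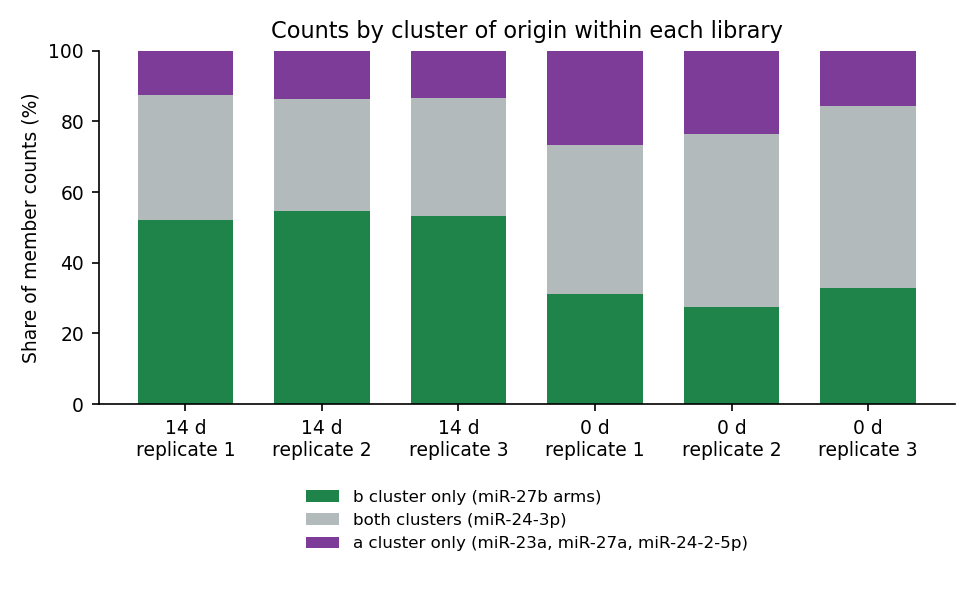
Member counts of each library by cluster of origin, as stacked shares (percent) of all member counts, with the 14 d libraries on the left and the 0 d libraries on the right. The b-only part takes 52.1% to 54.6% at 14 d and 27.5% to 32.8% at 0 d.

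As a share of the whole library, the b-only counts averaged 3.37% ± 2.03 at 14 d against 0.275% ± 0.102 at 0 d (SD of 3 libraries in each group). The a-only counts averaged 0.837% ± 0.514 at 14 d against 0.212% ± 0.121 at 0 d (SD of 3 libraries in each group). Without 14 d replicate 2 the 14 d means were 2.25% and 0.554%.

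The profiles of the members across the 6 libraries were alike to different degrees. Pearson's r of log2 CPM was 0.994 between miR-27b-3p and miR-24-3p, 0.966 between miR-27b-3p and miR-27a-3p and 0.798 between miR-27a-3p and miR-23a-3p. The highest value for miR-23a-3p among the tested members was 0.974, with miR-24-2-5p of its own cluster. Another a-cluster pair, miR-27a-3p and miR-24-2-5p, had the lowest value of all pairs of tested members, 0.660. miR-24-2-5p had few counts, from 0 to 31 in a library. Outside the clusters, the annotated miRNAs most like miR-27b-3p were miR-30a-5p (r = 0.991), miR-20a-5p (0.986) and miR-152-3p (0.983). For miR-24-3p they were miR-152-3p (0.996), miR-20a-5p (0.995) and miR-3559-3p (0.994). For miR-27a-3p they were miR-1839-5p (0.991), miR-221-3p (0.990) and miR-3559-3p (0.973). For miR-23a-3p they were miR-132-3p (0.995), miR-30d-5p (0.983) and miR-93-5p (0.966). These correlations over 6 libraries are descriptions, and the points share the libraries, the scaling factors and the difference between the groups.

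Other miRNAs reported to restrain adipocyte differentiation, the role shared with miR-27, moved in both directions. Of 11 on the list 4 were tested, 2 rose (background 26.1%) and 1 fell (background 28.6%), with a median log2 fold change of 1.9 against 0.26 over all tested sequences. miR-221-3p, which also acts on the cell cycle inhibitor p27, had 594, 2470 and 793 counts at 14 d against 403, 440 and 354 at 0 d, a log2 fold change of 3.99 ± 0.80 (edgeR SE with n = 3 in each group; adjusted p = 0.00628). It was 2.64 without 14 d replicate 2 and 2.79 with total counts. miR-145-5p, abundant in smooth muscle, had 90, 35 and 51 counts at 14 d against 0, 38 and 0 at 0 d, a fitted 4.32 ± 1.53 (adjusted p = 0.0433). It passed the filter on low counts only through the 14 d group, so its place among the tested sequences rests on the same counts as its rise. A decrease was called for miR-224-5p, which fell by 2.27 ± 0.43 (SE; edgeR adjusted p = 0.00521). Leaving out 14 d replicate 2, or scaling by total counts, left that call and changed the count of rises: 1 rose (background 16.4% without that library and 15.1% with total counts) and 1 fell (background 24.3% and 38.7%, in the same order), since the miR-145-5p call ended (adjusted p of 0.0721 and 0.0529).

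Other miRNAs reported to restrain osteoblast differentiation, as the a cluster does in mouse cells, also moved in both directions. Of 20 on the list 11 were tested, 6 rose (background 26.1%) and 2 fell (background 28.6%), with a median log2 fold change of 2.20 against 0.26 over all tested sequences. Besides miR-221-3p and miR-145-5p, those that rose were miR-214-3p (3.84), known in mouse and human cells to target the bone regulator Atf4, miR-30a-5p (3.77) and miR-30d-5p (2.28), known in mouse cells to target Runx2, and miR-34c-5p (2.20), a p53 target. miR-125b-5p fell by 2.95 and the muscle miRNA miR-206-3p fell by 4.88. Both passed the filter on low counts only through the 0 d group. miR-145-5p, which stands in both lists, passed it only through the 14 d group. Without 14 d replicate 2, 4 rose (background 16.4%) and 2 fell (background 24.3%), with miR-214-3p at 3.10, miR-30a-5p at 2.75 and miR-30d-5p at 1.55. With total counts 3 rose (background 15.1%) and 2 fell (background 38.7%), with miR-214-3p at 2.79 and miR-30a-5p at 2.64, and the miR-30d-5p call ended (1.23, adjusted p = 0.0779). The miR-34c-5p call ended under both, at 1.13 (adjusted p = 0.0841) without 14 d replicate 2 and 1.06 (adjusted p = 0.124) with total counts. It also ended without 0 d replicate 1 (1.89, adjusted p = 0.0704) or 0 d replicate 3 (2.15, adjusted p = 0.0689). That of miR-145-5p ended without any 1 library other than 0 d replicate 2, at 3.54 to 4.48.

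**Figure D4:**
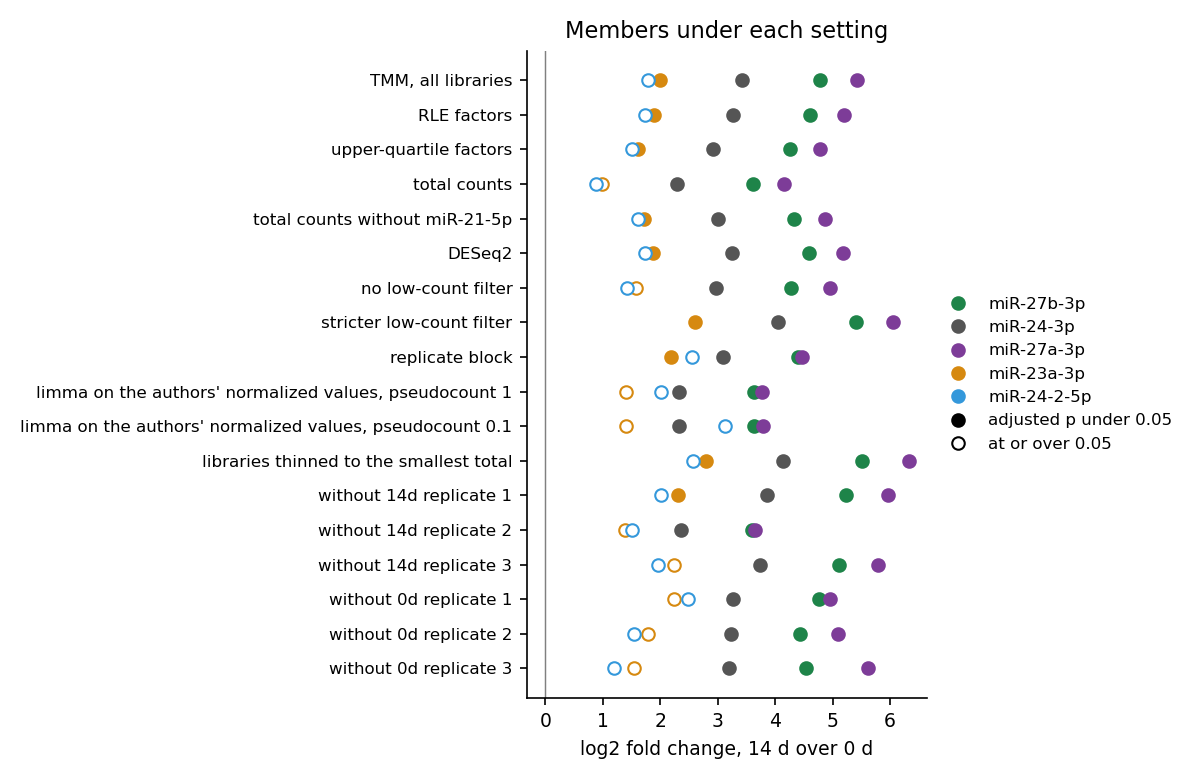
log2 fold change, 14 d over 0 d, of the 5 tested members under each processing setting, filled where the adjusted p was under 0.05 and open where it was not. miR-27a-3p, miR-27b-3p and miR-24-3p are filled in every setting drawn, miR-23a-3p is open in several (0.98 with total counts) and miR-24-2-5p is open in each setting that tested it.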

How the data were processed

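Small RNA of 6 vesicle samples was sequenced. The labels' protocols name Trizol for the extraction and a GenSeq kit for the libraries. Tools listed in the submitters' processing notes are Novoalign 3.02.12 and cutadapt 1.9.3, with build rn6 and no roles; the sources used here do not name the counting tool. In the raw table the authors deposited raw counts of tags for each mature miRNA, per the file headers (483 lines, smallest listed count 2), and a second deposited table holds normalized tag counts, treated as a score, which equal the raw count times 1 factor per library for 95.5% to 100% of values (to within 1 count plus 0.5%).

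Repeated lines of a mature sequence were reduced to 1, and blanks were taken as 0, although a blank may hide a count of 1. edgeR 4.0.16 (R 4.3.3) tested 14 d against 0 d with TMM factors, its default low-count filter (minimum count 10, minimum total 15; 119 sequences left), group as the only term, and Benjamini-Hochberg adjustment at 0.05. The SE is the log2 fold change divided by the square root of F. Library totals ran from 58730 to 164424 counts. Ratios and shares were compared with exact permutation tests (scipy 1.17.1). Alternatives used limma 3.58.1 on log2 of the normalized score, DESeq2 1.42.0, other factors and filters, thinning to 58730 counts and leaving out each library. The members and lists were chosen with earlier results of these data known. Named outside the members are, for each member that rose with at least 50 CPM on average, the 3 annotated miRNAs of highest correlation, each list member that changed, and sequences that hold the miR-27 seed.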

Additional observations from a re-analysis of the deposited data

How the results depend on the processing

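miR-27b-3p, miR-27a-3p and miR-24-3p stayed higher at 14 d and past the threshold under every setting run, with ranges over the 6 left-out libraries of 3.60 to 5.23, 3.65 to 5.96 and 2.35 to 3.85. The miR-23a-3p call ended with total counts (0.98, adjusted p = 0.19), with no filter (1.57, adjusted p = 0.0514) and with limma on the authors' normalized values (1.40 with a pseudocount of 1, 1.41 with 0.1). It also ended without any 1 library other than 14 d replicate 1, with values of 1.39 to 2.31 over the left-out libraries; the cause was not tested. miR-24-2-5p never passed (1.21 to 2.49 over the left-out libraries). The number of members that rose was 3 or 4 throughout, and the stricter filter (50 counts in 3 libraries) did not test miR-24-2-5p. Sequences called higher numbered 31 of 119, but 18 with total counts, 47 with DESeq2, and 20 and 17 with limma at pseudocounts of 1 and 0.1. Scaling alone moved the median log2 fold change by -0.86 with total counts and -0.29 with upper-quartile factors, and the share of calls that were higher was then 28.1% and 43.7%. With limma on the authors' values, where the test changed too, the shift was -0.75 and the share 31.2%. After thinning, where depth and the tested set (99 sequences) changed too, the shift was 0.60 and the share 60.7%. The log2 ratio of miR-27b-3p to miR-27a-3p changed sign without 14 d replicate 2 (0.18) and without 0 d replicate 1 (0.29), and ran from -0.61 to 0.29. With a replicate block, 62 sequences were called against 65, and the members were at 4.40, 4.47, 3.09, 2.19 and 2.55 (miR-27b-3p, miR-27a-3p, miR-24-3p, miR-23a-3p, miR-24-2-5p). Same-numbered libraries deviated together with r of -0.016, 0.041 and 0.167. The largest r with another number was 0.034, 0.055 and -0.081, in the same order. With 3 libraries in each group, these values cannot decide whether the numbers pair libraries. The arms miR-27a-5p and miR-27b-5p had too few counts for a test.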
